A study of Mus musculus with 38 samples.

Results

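The organ of Corti (OC) and the spiral ganglion (SG) of mouse cochlear explants, separated by dissection, were compared 24 h after a brief exposure to kainate. All arrays labelled with that time and treatment were taken, 3 of the SG fraction (replicates 1, 3 and 4) and 2 of the OC fraction (replicates 3 and 4), out of 38 arrays in the series, and all 25697 probes were read. The explants came from early postnatal C57BL/6 mice. Each explant was cultured as a whole, and its SG was then dissected from the remaining OC fraction. Arrays of equal number, here replicates 3 and 4 of both fractions, were taken to share an explant, which the sample titles do not state. Beside these 5 arrays, 6 arrays of the 2 fractions in control explants of the same culture time, 8 arrays 5 h after kainate and 6 arrays 72 h after kainate were used where a difference between fractions was set against the same difference elsewhere. The labels give no transgene, and control explants were cultured without kainate.

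Kainate is a glutamate receptor agonist that overexcites the afferent endings under the hair cells, so that the synapses between inner hair cells and auditory neurons are lost while the neurons and hair cells can survive. In the SG fraction lie the neuronal cell bodies with their satellite and Schwann cells, and in the OC fraction the hair cells, which convert sound to transmitter release, with supporting cells around them. Neither fraction is a purified cell type. Connective tissue, vessels, non-sensory epithelium and resident macrophages can stay with either one, and neurites of the ganglion neurons run into the OC fraction.

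Between 10959 and 12171 probes per array had a detection p under 0.01, which is called detected here, and 12508 probes were detected on none of the 5 arrays. The median raw signal per array was 204 to 273. Values below are normalized signals on a log2 scale, a difference is the SG mean minus the OC mean on that scale, and its standard error (SE) and adjusted p come from limma, fitted to all 38 arrays and adjusted over all 25697 probes by Benjamini-Hochberg. A probe was called at an adjusted p under 0.05. Arrays of 1 fraction correlated at 0.987 to 0.994 over all probes, and arrays of different fractions at 0.964 to 0.974. The SG arrays lay in the batches coloured black, black and blue in the study's heat map and the OC arrays in those coloured pink and green, so no batch held both fractions at this time, and a within-batch difference could not be computed.

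Of the 25697 probes, 2254 (8.77%) were called between SG and OC, 1163 (4.53%) higher in SG and 1091 (4.25%) higher in OC. The median difference of all probes was -0.01. This fit treated all arrays as independent. With the explant as a replicate block 3046 probes were called, 1557 higher in SG and 1489 higher in OC. With only the arrays of these 2 groups in the fit 1917 were called. The arrays of the 2 fractions did not overlap for 2242 of the called probes, against 8993 (35.0%) of all probes. The count without OC replicate 4 was 1251, and without OC replicate 3 it was 1503. Read as 1 probe a gene, 1721 of 16593 genes (10.4%) were called, of which 899 (5.42%) were higher in SG and 822 (4.95%) higher in OC. Fewer cells of a type and less RNA per cell cannot be told apart in dissected fractions.

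The largest differences toward SG belonged to genes of non-sensory epithelium, together with secreted enzymes and carriers. Vmo1, which encodes a homolog of an egg membrane protein, read 14.65, 14.72 and 14.36 in the SG arrays and 8.17 and 7.79 in the OC arrays. The difference was 6.60 (SE 0.69, 97.0-fold, adjusted p = 6.18e-08), with 1 of 2 OC arrays detected, and another probe of Vmo1 differed by 5.33 (SE 1.01, adjusted p = 0.000435). Every SG array lay far above both OC arrays, though genes whose arrays overlapped could not be chosen here. Ttr, the carrier of thyroid hormone and retinol-binding protein, read 14.10, 14.03 and 13.78 against 7.99 and 8.21, where 1 of 2 OC arrays was detected. Oc90, a matrix protein of otoconia, read 14.67, 14.68 and 14.47 against 9.82 and 9.19. Their differences were 5.87 (SE 0.54, adjusted p = 5.78e-09) and 5.10 (SE 0.79, adjusted p = 3.24e-05), and again no SG value came near an OC value.

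The homeobox transcription factors among these genes were at background in OC. Otx2 read 12.12, 12.32 and 11.60 in SG and 7.42 and 7.44 in OC, and Otx1 read 11.34, 11.31 and 10.65 against 7.52 and 7.74. Neither was detected on an OC array. For such a probe the fold is a lower bound, taken from the SG mean against the OC mean of, on each array, the higher of the lowest detected signal and the probe's own signal. Otx2 was at least 15.4-fold higher in SG (adjusted p = 4.3e-12, means 12.01 and 7.43) and Otx1 at least 8.18-fold (adjusted p = 1.33e-09, means 11.10 and 7.63). Meis2, another homeobox factor, was at least 6.15-fold higher (adjusted p = 4.08e-11, means 10.69 and 7.67). The adhesion protein gene Pcdh20 was at least 6.09-fold higher (means 10.67 and 7.67, adjusted p = 4.21e-10), and Lypd2 and Scrg1 were at least 10.1-fold and 7.53-fold higher.

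The others of the 15 largest differences toward SG were measured in both fractions. Rnase1, a secreted ribonuclease, read 14.47, 14.63 and 14.45 against 10.45 and 10.67, a difference of 3.95 (SE 0.32, 15.5-fold, adjusted p = 4.21e-10). Rnase4, its neighbour in the ribonuclease family, read 13.16 on each of the 3 SG arrays and 10.19 and 10.20 in OC, a difference of 2.97. A different Rnase4 probe was detected on none of the 5 arrays and differed by 0.10. Gpx3, a secreted glutathione peroxidase, differed by 3.47, Apod, a lipid carrier of glia and fibroblasts, by 3.41, and Plac8, a gene of leukocytes and some epithelia, by 3.08. Adam23, an adhesion protein of neurons, differed by 2.94 (1 of 2 OC arrays detected), while its other probes, read near background, differed by 0.74 and 0.27.

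**Figure D1:**
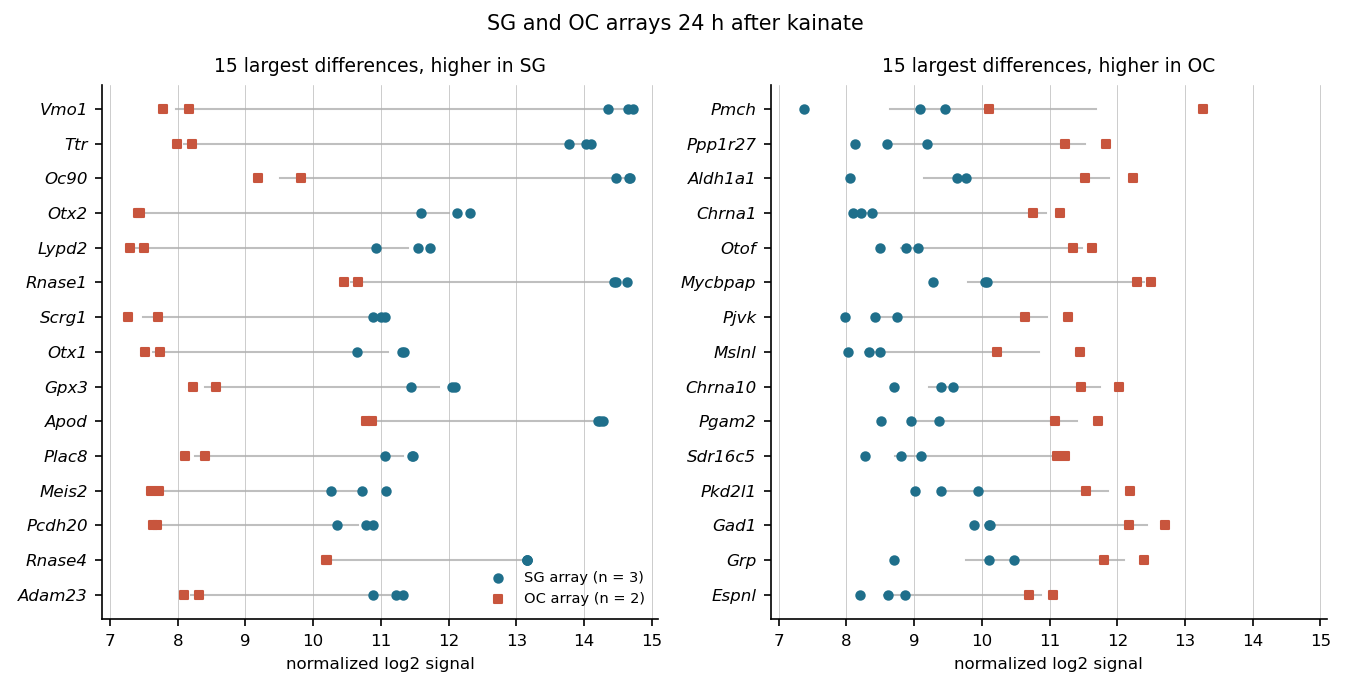
Normalized log2 signal (horizontal axis) on each array 24 h after kainate for the 15 genes with the largest called differences in each direction, with 3 SG arrays as circles and 2 OC arrays as squares, and a grey line joining the group means. Only genes whose groups do not overlap could be chosen, so the lack of overlap is part of the choice. Pmch has the widest gap between its OC arrays (13.26 and 10.11).

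Toward OC the largest differences were smaller and included hair cell genes. Otof, the calcium sensor of transmitter release in hair cells, read 8.88, 9.06 and 8.5 in SG and 11.34 and 11.62 in OC. Its difference was -2.67 (SE 0.29, adjusted p = 1.25e-07), or 6.37-fold higher in OC, whereas a second Otof probe was at background on all 5 arrays. Chrna10, a subunit of the receptor by which efferent fibres inhibit hair cells, read 9.39, 9.57 and 8.70 against 11.47 and 12.03, a difference of -2.53 (SE 0.33, adjusted p = 1.81e-06). Both genes were measured in SG too, at levels below those in OC. Pjvk, a deafness gene that encodes pejvakin, differed by -2.58 (2 of 3 SG arrays detected), and Espnl, which encodes an espin-like protein of stereocilia, by -2.31.

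Several of the other 15 genes encode enzymes, receptors and peptides. Chrna1, a nicotinic receptor subunit best known from muscle, read 8.38, 8.21 and 8.10 against 10.75 and 11.15, a difference of -2.72 (SE 0.25, adjusted p = 5.97e-09, 2 of 3 SG arrays detected). Its other probes differed by -2.42 and, at background, by -0.41. Gad1, which makes GABA, read 10.12, 10.11 and 9.88 against 12.18 and 12.70, and both of its probes were called (-2.40 and -2.36). Pmch, the precursor of melanin-concentrating hormone, had the largest difference (-3.05, SE 0.75, adjusted p = 0.00629), but its OC arrays read 13.26 and 10.11 and its SG arrays 9.08, 9.45 and 7.38, so that the groups came close to each other. Aldh1a1, a retinaldehyde dehydrogenase, read 9.63, 9.76 and 8.05 against 12.23 and 11.52 (difference -2.73, SE 0.54, adjusted p = 0.000676, 2 of 3 SG arrays detected). The SG array of replicate 4 was the lowest one for both Pmch and Aldh1a1. Ppp1r27 (-2.89, 2 of 3 SG arrays detected), Mycbpap (-2.59), Mslnl (-2.56), Pgam2 (-2.45), Sdr16c5 (-2.45), the channel gene Pkd2l1 (-2.42) and the peptide gene Grp (-2.34) made up the rest.

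Gene lists were then read with 1 probe a gene and set beside the 5.42% of all genes called higher in SG and the 4.95% called higher in OC. Over the lists together, 1119 genes were measured, of which 168 were called higher in SG and 121 higher in OC.

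**Figure D2:**
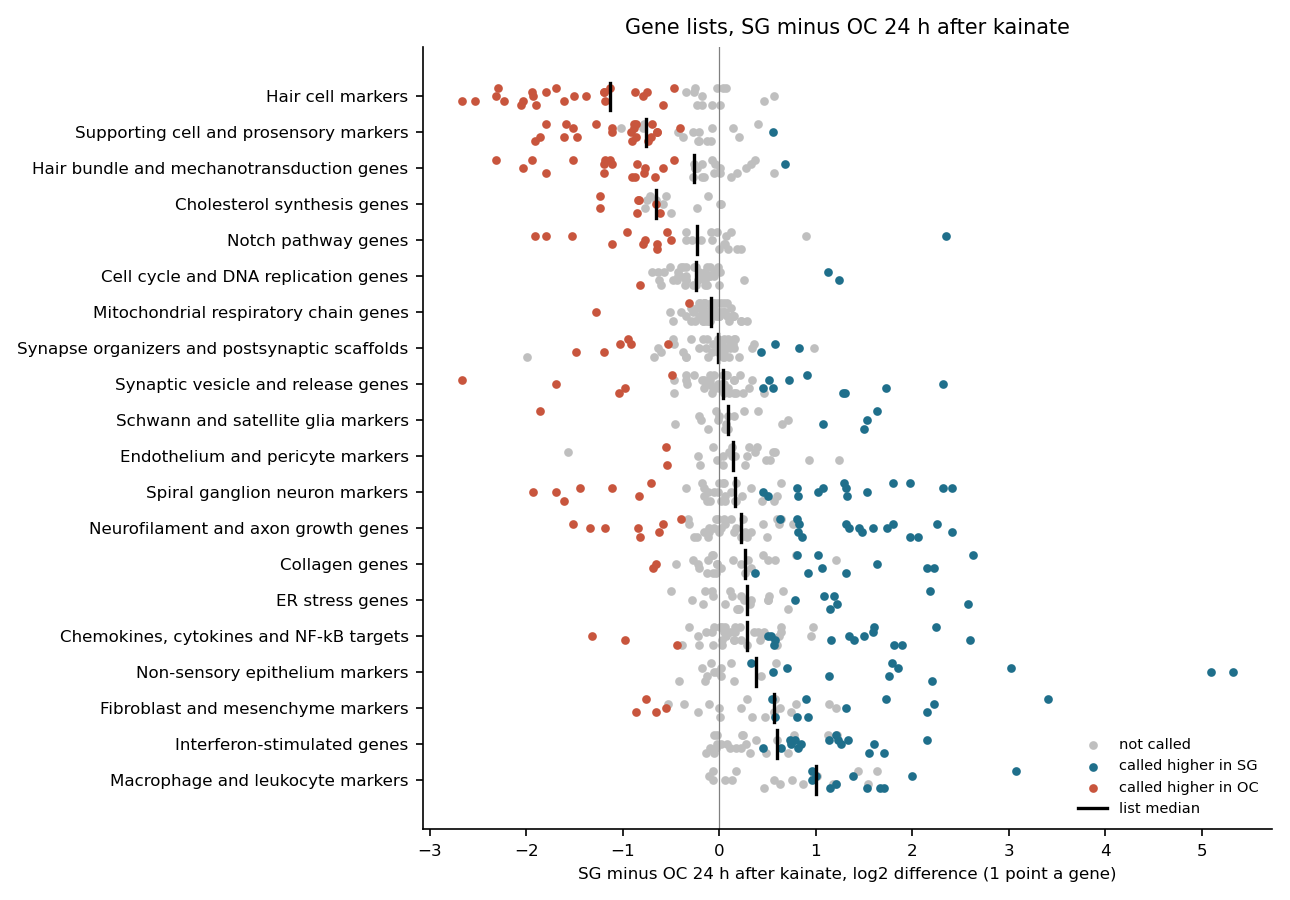
Difference between SG and OC 24 h after kainate (horizontal axis, log2) for each measured gene of 20 lists, with called genes in blue (higher in SG) or red (higher in OC), others in grey, and the list median as a black bar. Hair cell markers have the lowest median (-1.13) and macrophage and leukocyte markers the highest (1.00), against -0.01 for all genes.

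The hair cell markers that were called were higher in OC, the direction that the labels of the fractions give. Of 37 measured, 24 were called higher in OC, 0 higher in SG and 13 were not called, with a median difference of -1.13. The list mean was 8.78, 8.75 and 8.64 on the SG arrays and 9.63 and 9.89 on the OC arrays. Chrna9, the other subunit of the efferent receptor, read 8.83, 8.76 and 8.58 in SG and 10.41 and 10.83 in OC (difference -1.90, SE 0.18, adjusted p = 6.42e-09). Cabp2, a regulator of hair cell calcium channels, read 7.92, 7.98 and 7.78 against 9.98 and 10.26, where 1 of 3 SG arrays was detected (difference -2.23, SE 0.23, adjusted p = 3.34e-08). For both genes the lowest OC array lay well above the highest SG array. Of the 13 that were not called, 9 were at background on all 5 arrays, among them Atoh1, Tmc2, Pcdh15, Ush1g, Strc, Slc26a5 and Cacna1d, so the probes of prestin (Slc26a5), the outer hair cell motor, and of Atoh1, the factor that starts hair cell formation, gave no level in either fraction.

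The genes of the hair bundle, which carries the transduction channels, were also mostly toward OC. Of 38 measured, 18 were called higher in OC and 1 higher in SG, the latter 0 without SG replicate 3 or 4 or OC replicate 3 or 4, and the median was -0.26. Grxcr2, a stereocilia protein, differed by -1.94 (1 of 3 SG arrays detected) and Twf2, a twinfilin that caps actin, by -0.91. Ptprq, a phosphatase of the bundle's shaft links, was not detected in SG and was at least 1.90-fold higher in OC (means 7.76 and 8.96, adjusted p = 1.82e-06). The ribbon and efferent synapse list held 6 genes called higher in OC of 22 measured, and 0 called higher in SG. Rims2 and Cacnb2, the active zone scaffold and the auxiliary calcium channel subunit of the hair cell release site, were not detected in SG and were at least 1.44-fold and 1.56-fold higher in OC.

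Of 24 hair cell transcription factors, 6 were called higher in OC and 1 higher in SG. Gfi1, a zinc finger factor needed for hair cell survival, read 8.59, 8.67 and 8.19 against 10.29 and 10.81 (difference -2.06, SE 0.23, adjusted p = 1.42e-07). Pou4f3, its upstream regulator, read 8.23, 8.08 and 7.38 against 9.61 and 9.57 (difference -1.69, 2 of 3 SG arrays detected), and Barhl1 differed by -0.75 (1 of 3 SG arrays detected). Isl1, a LIM homeobox factor of both sensory epithelium and sensory neurons, was bright in both fractions, at 13.12, 13.15 and 13.19 in SG and 14.59 and 14.94 in OC. Esrrb, an orphan nuclear receptor best known from strial marginal cells in the cochlea, was the member that went toward SG. It was not detected in OC and was at least 2.04-fold higher in SG (means 9.10 and 7.38, adjusted p = 0.0012).

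Supporting cell and prosensory markers also lay toward OC. Of 38 measured, 22 were called higher in OC and 1 higher in SG, with a median of -0.76, and 14 were called higher in OC without SG replicate 4 or without OC replicate 4. The list mean was 10.77, 10.67 and 10.45 in SG and 11.35 and 11.38 in OC, with SG replicate 4 the lowest. Fgfr3, a receptor of supporting cells, read 8.01, 7.61 and 7.30 against 8.73 and 9.11 (difference -1.28, 1 of 3 SG arrays detected), and Lgr5, a Wnt co-receptor of supporting cells with progenitor capacity, read 8.42, 8.26 and 8.13 against 9.49 and 9.98 (difference -1.47, 2 of 3 SG arrays detected). Slc1a3, the glutamate transporter of glia and inner supporting cells, was the member called toward SG, at 14.46, 14.31 and 14.26 against 13.57 and 13.99 (difference 0.56, SE 0.16, adjusted p = 0.0235), and it was not called without SG replicate 1 or OC replicate 3.

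Notch signaling keeps supporting cells from turning into hair cells. Receptors cleaved after contact with a ligand on the next cell join the DNA-binding protein RBPJ and switch on the Hes and Hey repressors, while Fringe enzymes tune the receptors. Of 28 Notch pathway genes, 11 were called higher in OC, 1 higher in SG and 16 were not called, and 4 were called higher in OC without OC replicate 4 and 2 higher in SG with the explant as a replicate block. Of the targets, Hes5 read 8.61, 8.40 and 7.75 in SG and 9.64 and 10.46 in OC (difference -1.80, SE 0.29, adjusted p = 5.32e-05, 2 of 3 SG arrays detected). Hey1 read 12.99, 12.78 and 12.64 against 13.77 and 14.05 (difference -1.11, SE 0.17, adjusted p = 2.99e-05). OC replicate 4 was the higher OC array for both. Of the Fringe genes, Mfng differed by -1.53 (another probe, near background, by -0.26), and Lfng, not detected in SG, was at least 1.21-fold higher in OC (means 7.64 and 8.30, adjusted p = 0.000307). Dlk1, a non-canonical ligand that is imprinted, was the member called toward SG (2.35, SE 0.53, adjusted p = 0.00287), and SG replicate 4 was its highest array at 11.80 against 10.27 and 10.05.

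The letters GTGGGAA, the core that RBPJ reads, were searched for on both strands in the 250 bases before each start site in RefSeq (GRCm38.p6). They stood in 3 of the 8 Notch genes called higher in OC that had a promoter in the RefSeq table (Hes5, Hey2 and Lfng) and in 0 of 15 of those not called, against 6.18% of all 27025 genes. Hey2 falls outside the naming rule and is given because the count is 3. The promoters of Hes5 (GRCm38.p6, chr4:154960767-154960886, plus strand) and Lfng (chr5:140607159-140607278, plus strand) are shown because they belong to a target and a modulator called in the same direction, with the match in capitals. Hes5 holds another match, starting 226 bases before the start site, outside the letters shown.
Hes5: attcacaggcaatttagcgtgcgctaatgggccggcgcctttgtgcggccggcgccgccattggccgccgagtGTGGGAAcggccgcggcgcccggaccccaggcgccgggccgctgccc
Lfng: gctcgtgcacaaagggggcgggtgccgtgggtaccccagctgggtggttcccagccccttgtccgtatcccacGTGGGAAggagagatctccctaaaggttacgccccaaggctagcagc
A match is a description of these letters only.

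Ligands and receptors of the FGF and BMP pathways lay toward OC more often than toward SG, with 9 of 52 called higher in OC and 3 higher in SG, the latter 0 without SG replicate 3 or OC replicate 3. Fgf8, the ligand made by inner hair cells, was not detected in SG and read 9.27 and 9.74 in OC, at least 2.78-fold higher (means 7.72 and 9.50, adjusted p = 9.33e-07). Fgf10, a ligand of the prosensory epithelium, was measured in both, at 10.95, 11.20 and 11.42 against 12.50 and 13.06 (difference -1.59, SE 0.22, adjusted p = 4.1e-06). The decoy receptor gene Fgfrl1 differed by -1.06. Of 31 connexin and tight junction genes, 6 were called higher in OC, 3 without OC replicate 4, and 2 higher in SG. Gjb2, the main connexin of supporting cells, read 13.31, 13.35 and 13.52 against 14.19 and 14.32, while a dimmer Gjb2 probe was not called (-0.68, adjusted p = 0.0617). Cldn9, the claudin of the reticular lamina, differed by -0.86 toward OC. Gja1 (1.38) and Cldn11, the claudin of myelin and of strial basal cells (2.41, SE 0.26, adjusted p = 1.33e-07), went toward SG. Members of 1 family were thus called in opposite directions.

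Cholesterol synthesis genes, which share control by the sterol sensor SREBP2, all lay toward OC or near 0. Of 18 measured, 7 were called higher in OC and 0 higher in SG, with a median of -0.66. With the explant as a replicate block 12 were called higher in OC, and without OC replicate 3 the count was 3. Fdps, which makes farnesyl pyrophosphate, read 12.40, 12.38 and 12.18 in SG and 13.80 and 13.33 in OC (difference -1.24, SE 0.23, adjusted p = 0.000315). Hsd17b7, a ketosteroid reductase of the same pathway, read 11.81, 12 and 11.80 against 12.96 and 13.27 (difference -1.24, SE 0.19, adjusted p = 1.83e-05). Tm7sf2 and Stard4 differed by -0.66 and -0.84. The 24 h control difference of Fdps was -1.11 and of Hsd17b7 -0.74. The letters TCACNCCAC of the sterol element that SREBP2 reads, searched for on both strands in the 250 bases before the start site, stood in 1 of 5 of the genes called higher in OC that had a promoter in RefSeq (GRCm38.p6) and in 0 of 10 of those not called, against 1.22% of all genes.

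Markers of spiral ganglion neurons were called in both directions. Of 47 measured, 14 were called higher in SG, 7 higher in OC and 26 were not called, with a median of 0.16, and the list mean was 9.12, 9.28 and 9.36 in SG and 8.94 and 9.05 in OC. Without OC replicate 4 the number higher in OC was 4. Slc17a6, a vesicular glutamate transporter, read 10.07, 10.42 and 10.43 in SG and 7.82 and 8.15 in OC, a difference of 2.32 (SE 0.21, adjusted p = 3.84e-09) with 1 of 2 OC arrays detected. Nrn1, neuritin, which promotes neurite outgrowth, was not detected in OC and was at least 4.07-fold higher in SG (means 10.09 and 7.68, adjusted p = 5.03e-06). These neuronal genes were among the clearest toward SG. Gap43, the growth cone protein, read 10.67, 11.06 and 10.58 against 9.03 and 8.91 (difference 1.80, SE 0.26, adjusted p = 1.11e-05), and Elavl3, a neuronal RNA-binding protein, was at least 1.35-fold higher in SG (means 8.50 and 7.43, adjusted p = 3.26e-05).

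The neuron markers called toward OC were Isl1, Uchl1, Syt1, Pvalb, Gata3, Prox1 and Rbfox3, the last one named after its value was seen. Pvalb, a calcium buffer of hair cells as well as neurons, read 11.51, 11.59 and 11.78 in SG and 13.40 and 13.73 in OC (difference -1.93, SE 0.33, adjusted p = 0.000122). Syt1, a vesicle calcium sensor, read 9.56, 9.34 and 10.04 against 11.01 and 11.65, and Uchl1, a ubiquitin hydrolase, differed by -1.44. Gata3 (-1.11) and Prox1 (-0.71) encode transcription factors that the sensory epithelium also makes. Each of these genes was measured in both fractions. Of the neuron markers not called, 11 were at background on all 5 arrays, among them Nefl, Scg2, Pou4f1, Neurod1, Neurog1 and L1cam, so their probes gave no level for the neurons.

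Of 53 genes of neurofilaments and axon growth, 16 were called higher in SG and 8 higher in OC, the latter 3 without OC replicate 3 and 5 without SG or OC replicate 4. Gadd45a, a stress and injury gene of sensory neurons, read 12.24, 11.57 and 11.56 against 9.93 and 9.52 (difference 2.06, SE 0.26, adjusted p = 1.12e-06). Dclk1, a microtubule-binding kinase, differed by 1.48, and Arg1, an arginase linked to axon growth, was at least 3.62-fold higher in SG. Going the other way, Dpysl4 (-1.34, with another probe near background at -0.30), Nrcam (-1.18), Npy (-1.52) and Tuba1a (-0.62) were higher in OC. Axon guidance genes were called less, with 7 of 65 higher in SG and 3 higher in OC, 5 with the explant as a replicate block. The 7 became 2 without OC replicate 3, 3 without OC replicate 4 and 4 without SG replicate 1 or 4. Ntng1, a netrin G, differed by 0.86 and Sema3b, a secreted semaphorin, by 0.62, with a dimmer probe of each not called (0.30 and -0.03), while Ephb1 differed by -0.98 and Draxin, a secreted guidance cue, by -1.06.

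Most synaptic genes were not called, 41 of 55 vesicle and release genes (median 0.04) and 39 of 48 synapse organizers and scaffolds (median -0.01). Those that were called lay in both directions. Of 55 vesicle and release genes, 9 were called higher in SG and 5 higher in OC, and of 48 synapse organizers and scaffolds, 3 were called higher in SG and 6 higher in OC, 10 with the explant as a replicate block. Without OC replicate 4 the vesicle genes called were 5 and 3, and the 3 organizers higher in SG were 0 without OC replicate 3 and 1 without OC replicate 4, SG replicate 3 or SG replicate 4. Syt4 read 9.60, 9.99 and 9.77 in SG against 8.62 and 8.39 in OC (difference 1.28, SE 0.18, adjusted p = 5.8e-06). Sv2b, a vesicle glycoprotein, differed by 1.30, and Syn2, a synapsin, was at least 1.24-fold higher in SG. Among organizers, Cbln1, which bridges neurexins to postsynaptic receptors in the cerebellum, read 8.22, 8.67 and 8.48 against 9.83 and 10.06 (difference -1.49, SE 0.20, adjusted p = 4.27e-06). Lrrtm1, a postsynaptic partner of neurexins, read 8.16, 8.39 and 8.36 against 9.30 and 9.69 (difference -1.19, SE 0.21, adjusted p = 0.00018), and Nrxn3, a neurexin, differed by -0.92, with a dimmer probe not called (-0.50). Nlgn2, a neuroligin of inhibitory synapses, read 11.18, 11.28 and 11.26 against 10.71 and 10.92 and lay toward SG (difference 0.43, SE 0.13, adjusted p = 0.04).

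Of 37 glutamate receptor and transporter genes, 6 were called higher in SG and 1 higher in OC, the latter 0 without OC replicate 4. Gria3, an AMPA receptor subunit, read 10.11, 10.03 and 9.95 against 9.14 and 9.13 (difference 0.89, SE 0.20, adjusted p = 0.00208). Slc38a5, a glutamine transporter, read 9.47, 8.99 and 9.19 in SG and was not detected in OC, at least 2.22-fold higher (means 9.21 and 7.41, adjusted p = 1.05e-06). Of 33 neurotrophic genes, 4 were called higher in SG and 3 higher in OC, and 2 were higher in SG without OC replicate 3 or 4. Bdnf, the neurotrophin that hair cells and supporting cells supply, read 8.59, 8.70 and 8.01 against 9.71 and 10.17 (difference -1.51, SE 0.19, adjusted p = 1.12e-06, 2 of 3 SG arrays detected). Its receptor gene Ntrk2 went the other way, at 12.20, 12.03 and 12.10 in SG against 11.15 and 10.01 in OC (difference 1.53, SE 0.33, adjusted p = 0.00208). On a dimmer Ntrk2 probe, at 9.39, 9.46 and 8.65 against 8.69 and 8.28, the groups overlapped and the difference of 0.68 was not called (adjusted p = 0.48). Gdnf and Vegfa differed by 0.69 and 0.76.

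Of 39 voltage-gated channel genes, 6 were called higher in SG and 3 higher in OC, 5 with the explant as a replicate block. Kcnk2, a two-pore potassium channel, read 11.61, 11.40 and 11.50 against 8.92 and 9.53 (difference 2.28, SE 0.29, adjusted p = 1.2e-06). The calcium channel genes Cacna2d1 and Cacna1h differed by 1.33 and 1.03, and Kcna10, a potassium channel of hair cells, was not detected in SG and was at least 1.91-fold higher in OC. Of the 10 genes that the study named, 4 were called higher in SG, 1 without OC replicate 3, and 1 higher in OC. Elavl4 and Psd2 were not detected in OC and were at least 1.52-fold and 1.19-fold higher in SG. Syn1, a synapsin, read 8.68, 9.11 and 9.39 against 7.98 and 8.32 (difference 0.91, SE 0.21, adjusted p = 0.00291, 1 of 2 OC arrays detected), and Nlgn2 is given above. Sox21, a factor of supporting cells, read 12.17, 12.24 and 12.32 against 13.10 and 13.17 (difference -0.90, SE 0.19, adjusted p = 0.00182), and a probe of it near background was not called (-0.61). Ntrk3 was not called on the probe read for the list (adjusted p = 0.455), which lay near background. Another Ntrk3 probe, detected on 3 SG and 0 OC arrays, differed by 0.88 (adjusted p = 0.000502). Of its probes detected on 0 arrays, 1 differed by 0.54 (adjusted p = 0.00423) and 1 by 0.39, which was not called. Rgmb, Sema7a, Ppp1r1c and Syt8 were not called on the probe read for the list either, so 5 of the 10 were not called. The study chose its 10 genes on samples of the same series.

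Glia and non-sensory cells lay mostly toward SG where they were called. Of 21 Schwann and satellite glia markers, 4 were called higher in SG, 1 higher in OC and 16 were not called, and 2 were higher in SG without OC replicate 4. Egr2, which drives myelination, read 10.39, 11.29 and 10.48 in SG and 9.19 and 8.97 in OC (difference 1.64, SE 0.30, adjusted p = 0.000241). Pmp22, a protein of compact myelin, read 12.65, 12.13 and 12.33 against 11 and 10.68. Ednrb (1.5), an endothelin receptor of glia and melanocytes, and Dhh (1.08, 1 of 2 OC arrays detected), a signal from Schwann cells, were the other members toward SG. Mbp, a myelin gene, was not among these 4 and was not called on the probe that the count read, that of highest mean signal. A probe of it that the list count did not use read 11.14, 11.45 and 11.48 in SG against 8.89 and 9.01 in OC. That probe differed by 2.41 (SE 0.27, adjusted p = 2.43e-07), so the call for Mbp depended on the probe read. A further Mbp probe, near background and also outside the count, was not called (0.19, adjusted p = 0.45). Sox2, which supporting cells also make, was the member toward OC (-1.86, 2 of 3 SG arrays detected), and it was not called without SG replicate 4. Of 24 non-sensory epithelium markers, 11 were called higher in SG and 0 higher in OC, and without OC replicate 4 these were 6 and 1. Vmo1, Oc90 and Meis2 are among them, as is Slc26a4, the anion exchanger pendrin, at 11.22, 11.21 and 11.38 against 9.52 and 9.43 (difference 1.79, SE 0.31, adjusted p = 0.000148). Of 10 melanocyte markers, 3 were called higher in SG, Gpnmb, Ednrb and Dct, while the defining genes Tyr, Tyrp1, Mitf, Slc45a2 and Met were at background on all 5 arrays.

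Fibroblast and mesenchyme markers were called in both directions, 10 of 31 higher in SG and 4 higher in OC, with a median of 0.57. Without OC replicate 4 these counts were 6 and 1, and without SG replicate 1 the count higher in OC was 2. Col3a1 read 11.98, 12.45 and 12.38 in SG against 10.09 and 10.14 in OC (difference 2.15, SE 0.46, adjusted p = 0.00156), and Ogn, a small proteoglycan, differed by 1.73. Fbln2, a basement membrane protein, differed by -0.86 (another probe, not called, by -0.63) and Lum, lumican, by -0.55. Of 35 collagen genes, 10 were called higher in SG, 6 without OC replicate 4, and 2 higher in OC, 0 without OC replicate 4 and 1 without SG replicate 1 or 3. Toward SG were Col23a1 (1.64), Col15a1 (2.63, 1 of 2 OC arrays detected) and Col6a1 (2.23). Of 28 metalloproteinase genes and inhibitors, 7 were called higher in SG, 2 without OC replicate 3 and 3 without SG replicate 4, and 1 higher in OC, 2 without OC replicate 4. Mmp9, a gelatinase, read 10.08, 10.16 and 9.97 against 8.12 and 8.62 (difference 1.70, SE 0.23, adjusted p = 3.54e-06), and Adamts4, an aggrecanase, differed by 2.06. Mmp24, a membrane-type protease, was the member toward OC (-1.36). Of 22 tectorial membrane and matrix genes, 4 were called higher in SG, 1 without OC replicate 4 and 2 without SG replicate 4, and 2 higher in OC, 0 without SG replicate 3 or OC replicate 4 and 1 without OC replicate 3. Tecta, the alpha-tectorin of the tectorial membrane, read 14.04, 13.92 and 14.30 against 15.03 and 14.91, while Otoa, which anchors that membrane to the spiral limbus, read 13.73, 13.46 and 13.75 against 12.04 and 11.73.

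Macrophage and leukocyte markers had the highest list median (1.00). Of 29 measured, 11 were called higher in SG, 0 higher in OC and 18 were not called. The number called was 3 without OC replicate 3, 3 without OC replicate 4, 6 without SG replicate 1, 7 without SG replicate 4 and 17 with the batch as a block. The list mean was 9.34, 9.19 and 9.73 on the SG arrays and 8.36 and 8.47 on the OC arrays, without overlap. Pf4, a platelet and macrophage chemokine, read 10.38, 10.25 and 9.82 against 8.55 and 8.32 (difference 1.71, SE 0.35, adjusted p = 0.000863). Lgals3, galectin-3 of phagocytes, read 12.94, 12.84 and 12.72 against 11.83 and 10.77, and Cd53, a leukocyte tetraspanin, was at least 1.81-fold higher in SG (means 8.92 and 7.77, adjusted p = 0.00491). Plac8, counted in this list, read 11.06, 11.47 and 11.46 against 8.11 and 8.40. The defining markers Itgam, Ptprc, Spi1 and Ccr2 were at background on all 5 arrays.

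Interferon-stimulated genes are switched on through the ISRE, the DNA letters that the interferon-activated factor complex reads, and encode sensors and blockers of viral RNA. Of 39 measured, 16 were called higher in SG, 0 higher in OC and 23 were not called, with a median of 0.60, and between 6 (without OC replicate 3) and 16 were called when 1 array was left out, with 9 called without SG replicate 4 and 10 without OC replicate 4. The list mean was 9.12, 9.33 and 9.30 in SG and 8.52 and 8.70 in OC. The macrophage list mean was also higher in SG than in OC, but within SG its order of arrays differed. The part of macrophage markers in the interferon result was not tested. Ifit2, which binds foreign RNA, read 9.52, 9.58 and 9.57 against 8.33 and 8.35 (difference 1.21, SE 0.21, adjusted p = 0.000113), and Ifi27, a mitochondrial interferon-induced protein, read 13.47, 13.59 and 13.38 against 12.32 and 12 (difference 1.33, SE 0.22, adjusted p = 5.88e-05). For both genes every SG array lay above every OC array. Oas1g, of the family that senses double-stranded RNA, was not detected in OC and was at least 1.89-fold higher in SG (means 8.98 and 7.84, adjusted p = 2.5e-05). Phf11a was detected on 2 of 3 SG arrays and no OC array, and no fold is given for it.

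The core of the ISRE, GAAA followed by any 2 bases and GAAA again, was searched for on both strands in the same 250-base windows. It stood in 6 of the 12 interferon list genes called higher in SG that had a promoter in the RefSeq table and in 9 of 20 of those not called, against 3.46% of all 27025 genes. Promoters of Oas1g (GRCm38.p6, chr5:120887614-120887733, minus strand), Phf11a (chr14:59297523-59297642, minus strand), Ifit3 (chr19:34583337-34583456, plus strand) and Isg15 (chr4:156200835-156200954, minus strand) are shown with every match in capitals, overlapping matches as 1 run. Ifit3 and Isg15 were chosen after their values were seen. They show how the same core stands in genes of unequal level, alone or repeated.
Oas1g: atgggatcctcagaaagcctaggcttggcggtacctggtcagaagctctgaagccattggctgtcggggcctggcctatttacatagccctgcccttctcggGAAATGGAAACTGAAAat
Phf11a: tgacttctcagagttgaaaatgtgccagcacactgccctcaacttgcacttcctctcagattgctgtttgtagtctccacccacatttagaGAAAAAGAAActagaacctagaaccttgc
Ifit3: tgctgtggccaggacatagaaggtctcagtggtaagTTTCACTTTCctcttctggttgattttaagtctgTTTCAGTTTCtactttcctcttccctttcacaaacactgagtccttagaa
Isg15: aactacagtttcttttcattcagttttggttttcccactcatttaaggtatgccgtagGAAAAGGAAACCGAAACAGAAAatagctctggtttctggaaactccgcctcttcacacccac
Ifit3, an RNA-binding partner of the Ifit family, read 10, 10.68 and 11.10 in SG and 7.77 and 9.12 in OC (difference 2.15, SE 0.46, adjusted p = 0.00156, 1 of 2 OC arrays detected). Isg15, a ubiquitin-like modifier, read 9.56, 9.82 and 9.98 against 8.43 and 8.68 (difference 1.23, SE 0.36, adjusted p = 0.0269). For Ifit3 the 2 OC arrays differed by more than the SG arrays did.

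Chemokine, cytokine and NF-kB target genes were called higher in SG in 14 of 51 cases and higher in OC in 3. The 14 became 8 without OC replicate 3 or 4 and 9 without SG replicate 3 or 4, and the 3 became 1 without SG replicate 1, SG replicate 4 or OC replicate 3. Ccl4, a chemokine of activated macrophages, read 11.77, 11.60 and 12.08 in SG against 9.04 and 9.40 in OC (difference 2.60, SE 0.45, adjusted p = 0.000127). Its neighbour Ccl3 was not detected in OC and was at least 2.11-fold higher in SG, and Ccl5 and Ccl11 differed by 1.89 and 1.59. Toward OC, Cxcl14, a chemokine of epithelia, read 7.99, 8.45 and 8.26 against 9.32 and 9.78 (difference -1.32, SE 0.17, adjusted p = 1.76e-06). Il33, an alarmin of epithelial cells, read 10.11, 10.44 and 9.82 against 11.10 and 11.10 (difference -0.98, adjusted p = 0.04), and Il6 was at background on all 5 arrays. Of 16 complement genes, 2 were called higher in SG and 0 higher in OC, C1qc (1.67) and C4b (0.70). The 2 became 0 without SG replicate 1, OC replicate 3 or OC replicate 4, 1 without SG replicate 4, and 5 with the explant as a replicate block.

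Immediate early and ER stress genes that were called lay toward SG. Of 31 immediate early genes, 7 were called higher in SG, 4 without OC replicate 4, and 0 higher in OC. Atf3, a factor induced by nerve injury, read 9.45, 9.54 and 10.06 in SG against 8.05 and 8.13 in OC (difference 1.59, SE 0.30, adjusted p = 0.000362, 1 of 2 OC arrays detected), and Klf4 and Dusp4 differed by 1.02 and 1.22, with a dimmer probe of each not called (0.65 and 0.38). TGACGTCA, the letters that CREB reads, stood in 0 of 6 of the immediate early genes called higher in SG with a promoter in RefSeq and in 2 of 17 not called, against 1.77% of all genes, and the CArG box of serum response factor in 0 of 6 and 0 of 17, against 0.0518%. Of 28 ER stress genes, 7 were called higher in SG and 0 higher in OC, where 1 was called with the explant as a replicate block. Ddit3, the CHOP factor of the unfolded protein response, read 12.03, 11.19 and 12.10 against 9.24 and 9.14 (difference 2.58, SE 0.35, adjusted p = 4.03e-06), and a second probe of it differed by 2.49. Aldh1l2, a mitochondrial folate enzyme, read 11.35, 11.66 and 11.71 against 9.26 and 9.52. Both genes had every SG array above every OC array on these probes. Sel1l, of ER-associated degradation, differed by 1.09 on its brightest probe, but a second bright one read 10.51, 10.45 and 9.68 against 9.90 and 10.30, with overlapping groups (difference 0.11, adjusted p = 0.926).

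Glycolysis genes were called higher in SG in 6 of 19 cases and higher in OC in 0. Slc2a3, the neuronal glucose transporter, read 12.17, 12.53 and 12.24 against 10.53 and 10.99 (difference 1.56, SE 0.26, adjusted p = 0.000101), and Slc2a1, Eno2 and Hk2 differed by 0.85, 1.32 and 0.87. Of 38 oxidative stress genes, 7 were called higher in SG, 2 without OC replicate 4, 3 without OC replicate 3 and 4 without SG replicate 3 or 4, and 2 higher in OC, 1 without any 1 of SG replicates 1 and 3 and OC replicates 3 and 4, and 4 with the explant as a replicate block. Gpx3 is given above, Gsta3 differed by 1.16, and Nfe2l2, the factor NRF2, by 0.94 (1 of 2 OC arrays detected). Of 65 mitochondrial respiratory chain genes, 2 were called higher in OC, 1 without SG replicate 4 or OC replicate 3, and 0 higher in SG. They were Ndufa4 at 13.32, 12.85 and 12.97 against 14.28 and 14.37 (difference -1.28, SE 0.15, adjusted p = 6.53e-07) and Cyc1 (-0.31). Of 44 cell cycle genes, 2 were called higher in SG and 1 higher in OC, while 10 were called higher in OC without OC replicate 4, 2 without SG replicate 3 or with the explant as a replicate block, and 0 without SG replicate 1, SG replicate 4 or OC replicate 3. The 2 toward SG were the cell cycle inhibitors Cdkn1a (1.13) and Cdkn1c (1.24), and the 1 toward OC was Mcm5 of the replication helicase (-0.82), whose OC arrays read 11.08 and 9.94.

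Other cell types and families gave few calls. Of 24 endothelium and pericyte markers, 0 were called higher in SG and 2 higher in OC, of 20 cartilage and bone markers 0 and 1, and of 6 red blood cell markers 0 and 0 in this limma fit. The 2 endothelial calls became 1 without SG replicate 1, SG replicate 4 or OC replicate 3, 1 was called higher in SG without SG replicate 3, and the 1 cartilage call 0 without SG replicate 3 or OC replicate 4. With the explant as a replicate block 1 endothelial, 1 cartilage and 1 neuronal transcription factor gene and 2 Sox genes were called higher in SG. Of 15 Sox factors, 0 were called higher in SG and 3 higher in OC, 1 without OC replicate 4. Of 39 neuronal transcription factors 0 and 5 were called, the latter 1 without OC replicate 4 and 3 without SG replicate 3. Of the 26 genes set side by side as relatives in neurons or glia and in hair or supporting cells, 2 were called higher in SG, 1 without OC replicate 4, and 13 higher in OC. Slc17a6 was one of the 2 toward SG. Slc17a7, the other, was called (difference 0.45, adjusted p = 0.0047) although it was not detected on any of the 5 arrays, at 7.62, 7.63 and 7.67 against 7.23 and 7.16, so no fold is given for it.

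The same fractions were compared in control explants after 24 h of culture and in explants 5 h and 72 h after kainate, with no array in common. The number of probes called between SG and OC was 2015 (7.84%) in 24 h control explants, 3921 (15.3%) 5 h after kainate and 2900 (11.3%) 72 h after kainate. These groups held 2 to 4 arrays each, and the counts were not set against each other by a test. Of the 1163 probes called toward SG 24 h after kainate, 636 (54.7%) were also called toward SG in control explants, which is 64.3% of the 989 control calls (3.85% of probes). The shares 5 h after kainate were 82.5% of the 24 h calls and 50.1% of the 1916 calls at 5 h (7.46% of probes), and 72 h after kainate they were 43.0% and 34.0% of 1471 calls (5.72%). Toward OC, 61.0%, 84.5% and 58.2% of the 1091 calls were also called in control explants, 5 h and 72 h after kainate, where 3.99%, 7.80% and 5.56% of probes were called toward OC. The share was lowest at 72 h in both directions. Of the probes called 24 h after kainate, 0 were called in the opposite direction in control explants or at 5 h, and 3 in each direction at 72 h.

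The list medians stood beside each other as follows. The hair cell list had a median difference of -0.77 in 24 h control explants, -0.98 at 5 h, -1.13 at 24 h and -0.64 at 72 h after kainate. The macrophage list had medians of 0.44, 0.89, 1.00 and 0.29, and the interferon list 0.24, 0.31, 0.60 and 0.08. The neuron list had 0.11, 0.45, 0.16 and 0.02. The first 3 of these lists lay farthest from 0 at 24 h after kainate, and the neuron list at 5 h. No test of a list was made.

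**Figure D3:**
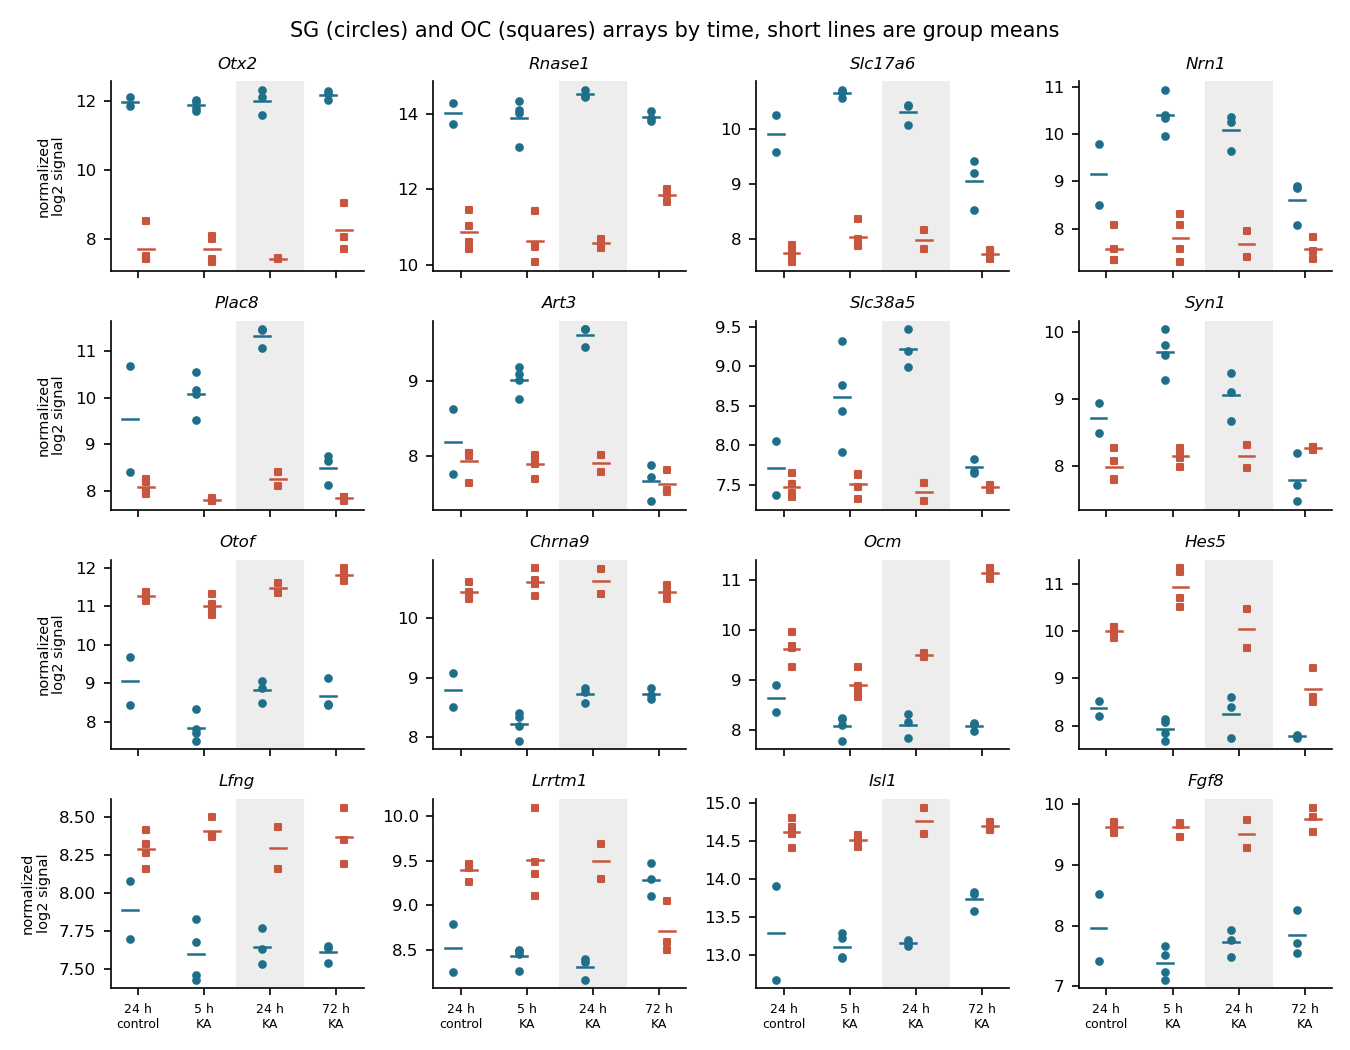
Normalized log2 signal (vertical axis) on each array for 16 genes in 24 h control explants and 5, 24 and 72 h after kainate (KA), with SG arrays as circles, OC arrays as squares, group means as short lines, and the 24 h kainate arrays shaded. Otx2, Chrna9 and Fgf8 keep the fractions apart at each time, while Art3, Slc38a5 and Plac8 are highest in SG at 24 h after kainate.

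Whether the difference between fractions was itself different after kainate was tested as the SG minus OC difference 24 h after kainate minus that in 24 h control explants. With limma 0 of 25697 probes (0.0%) were called, 1078 had an unadjusted p under 0.05 and 95 an unadjusted p under 0.005. The probes of smallest p were led by Slc38a5, whose difference was 1.57 higher than in control explants (unadjusted p = 1.67e-05, adjusted p = 0.429). Its SG control arrays read 7.37 and 8.06, against 9.47, 8.99 and 9.19 after kainate, and its OC control arrays read 7.51, 7.35, 7.65 and 7.40. Art3, an ADP-ribosyltransferase, had SG control values of 7.76 and 8.63 against 9.46, 9.69 and 9.69 after kainate (1.44, adjusted p = 0.724). The 2 SG control arrays differed from each other by more than the 3 kainate arrays did for both genes. The count was 1 without OC kainate replicate 3 and 3 without SG control replicate 3.

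The difference between fractions at 24 h was tested against that at 5 h in the same way. With limma 0 of 25697 probes (0.0%) were called, 1097 had an unadjusted p under 0.05 and 106 an unadjusted p under 0.005, and 1 was called without OC replicate 4. Arpp21, a cAMP-regulated phosphoprotein of neurons, had the smallest p, with a difference lower by -1.19 at 24 h (unadjusted p = 2.85e-05, adjusted p = 0.732). It read 9.39, 8.99, 8.83 and 9.78 in SG at 5 h and 7.89, 8.39 and 8.71 at 24 h. All 4 SG values at 5 h lay above all 3 at 24 h. Hes5 changed the other way, by 1.21 on its second probe (adjusted p = 0.746), whose OC arrays read 10.53, 10.16, 10.53 and 9.87 at 5 h and 8.84 and 9.89 at 24 h.

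Between 24 h and 72 h after kainate the difference between fractions changed at 160 of 25697 probes (0.623%), rising toward SG at 101 (0.393%) and falling toward OC at 59 (0.23%). With the explant as a replicate block 434 were called, including all 160, and with only the arrays of these 4 groups in the fit 13 were called. The count was 53 without OC 24 h replicate 3, 61 without SG 72 h replicate 3, 77 without SG 24 h replicate 4, 93 without SG 72 h replicate 4 and 330 without SG 72 h replicate 1, and 33 probes were called in each of the 11 fits that left out 1 array. Of the 101 that rose, the SG mean rose by more than the OC mean changed at 97, and 32 were detected on all 3 SG arrays at 72 h and on no other array of the 4 groups. Of the 59 that fell, the SG mean changed by more at 41 and the OC mean at 18.

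The probes that rose with the smallest p were near background at 24 h. Hsd3b2, a steroid dehydrogenase, read 8.43, 8.48 and 7.80 in SG at 24 h and 10.38, 11.33 and 10.98 at 72 h, and on this probe it was not detected in OC at either time (change in the difference 2.35, SE 0.31, adjusted p = 0.000343). Another Hsd3b2 probe was bright in both fractions, at 13.12, 13.41 and 12.65 in SG and 12.82 and 12.58 in OC at 24 h, and its change of 0.91 was not called (adjusted p = 0.252). Ern2, an ER stress sensor of mucous epithelia, read 8.39, 8.35 and 8.26 in SG at 24 h and 9.94, 10.51 and 11.11 at 72 h (2.11, adjusted p = 0.000478). Acsm3 (1.73), Mei4 (1.67), Olfr156 (1.65) and Hmcn1 (1.64) were detected on the 3 SG arrays at 72 h and on no other array of these groups. Different Acsm3 probes, not detected at 24 h, changed by 0.09 and 0.12. Lrrtm1, given above as higher in OC at 24 h, read 9.10, 9.47 and 9.29 in SG and 9.05, 8.5 and 8.59 in OC at 72 h, a change of 1.76 (SE 0.28, adjusted p = 0.00161). Its groups had traded places by 72 h, and it was named for this contrast after its value was seen.

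The probes that fell came from both fractions. Ocm, oncomodulin, the calcium buffer of outer hair cells, read 9.54 and 9.45 in OC at 24 h and 11.15, 11.23 and 11.02 at 72 h, while SG stayed at 7.84 to 8.32 and 7.98 to 8.14 (change -1.67, SE 0.29, adjusted p = 0.00309). Fabp3, a fatty acid carrier, read 10.10 and 9.64 in OC at 24 h and 11.25, 11.08 and 11.36 at 72 h (-1.93, adjusted p = 0.00325). In both the OC arrays at 72 h stood above those at 24 h. Slc6a12, a betaine and GABA transporter, was not detected at 24 h and read 8.29, 9.71 and 9.47 in OC at 72 h (-1.78, adjusted p = 0.00203). A second probe of Cdkn1a read 10.35 and 10.09 in OC at 24 h and 11.43, 11.42 and 11.35 at 72 h, with SG between 11.23 and 11.47 at both times (-1.26, adjusted p = 0.00367). Art3 fell in SG, from 9.46, 9.69 and 9.69 to 7.89, 7.40 and 7.73 (-1.67, adjusted p = 0.00378), and Syp, synaptophysin of synaptic vesicles, from 10.04, 10.36 and 10.53 to 9.38, 8.29 and 8.84 (-1.48, adjusted p = 0.00377).

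Others of the probes that fell are given here for genes named after their values were seen. Syn1 read 8.68, 9.11 and 9.39 in SG at 24 h and 8.20, 7.48 and 7.73 at 72 h (change -1.38, SE 0.28, adjusted p = 0.0109). Nefm, a neurofilament subunit, read 11.07, 11.38 and 11.31 in SG at 24 h and 10, 8.21 and 9.21 at 72 h, with OC at 10.27 and 11.03 and then 10.56, 10.37 and 10.36 (-1.89, SE 0.44, adjusted p = 0.0294). For both, SG fell from above the OC level to below it. Plac8 read 8.63, 8.74 and 8.12 in SG at 72 h (-2.42, adjusted p = 0.0391), Reln, the secreted protein reelin, changed by -1.99 (adjusted p = 0.0139) and Atf3 by -1.66 (adjusted p = 0.0397). Of the 11 fits that left out 1 array, Syn1 and Reln were called in 9 each, Nefm in 4, Atf3 in 3 and Plac8 in 2, and a second Syn1 probe was not called (-0.78, adjusted p = 0.0782). Of the 47 neuron markers 1 fell and 0 rose, with a median change of -0.42, of the 29 macrophage markers 1 fell and 0 rose (median -0.48), and of the 39 interferon genes 2 fell and 0 rose (median -0.38), beside a median of 0.01 for all genes. Of the 37 hair cell markers 1 fell, Ocm, and 0 rose (median 0.02).

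**Figure D4:**
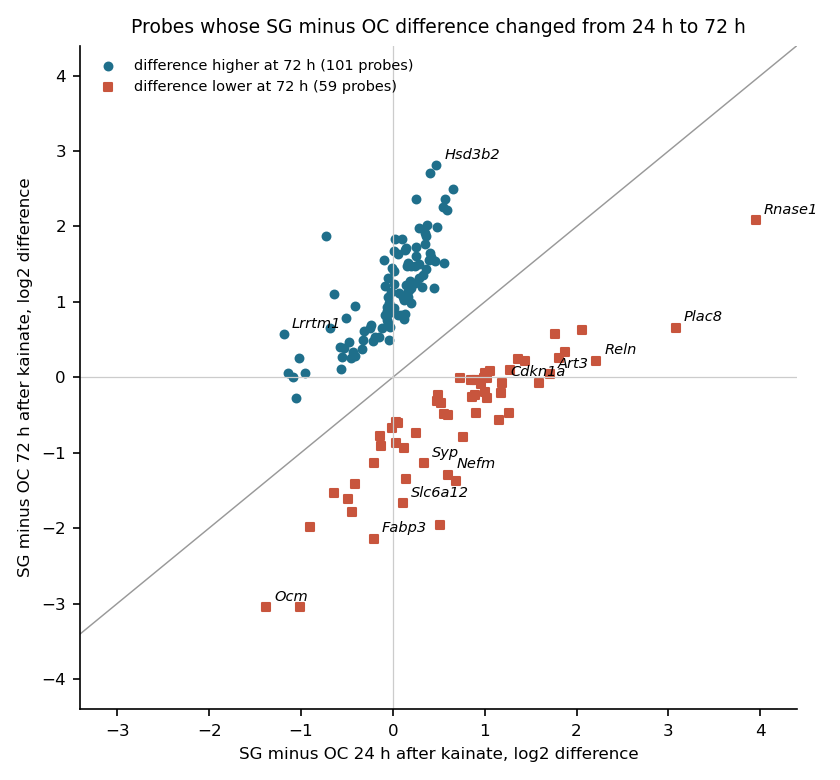
SG minus OC difference (log2) 24 h after kainate (horizontal axis) and 72 h after kainate (vertical axis) for the 160 probes at which it changed, with 101 that rose as blue circles, 59 that fell as red squares, and the diagonal marking no change. Most rising probes lie near 0 at 24 h, and Rnase1 and Plac8 lie farthest toward SG at 24 h.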

How the data were processed

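RNA was extracted with Trizol and cleaned on columns with DNase I, and biotinylated cRNA was hybridized to Illumina MouseRef-8 arrays. The labels name limma in the submitters' processing notes. No source used here gives its version, how values were normalized or the scanning software. The authors deposited raw signal intensities on a linear scale, normalized values on a log2 scale, a detection p-value for each probe and array, and a series matrix. Quantile normalization of the log2 raw intensities over the 38 arrays returned the deposited log2 values to within 4.99e-09, and the series matrix differed by at most 0. No background was subtracted, so differences of dim probes are compressed.

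Of 25697 probes, 23978 carry 1 gene symbol, 0 several and 1719 none. Promoter sequences are from RefSeq (GRCm38.p6). Models with a mean for each of 12 groups were fitted to all probes in limma 3.58.1 (R 4.3.3), with 26 residual and 5.36 prior degrees of freedom, and contrasts were taken within this fit. The labels number replicates, and p-values measure the spread between these arrays. Pairing SG and OC arrays by replicate number is an assumption, since the sample titles do not name the explant. Residuals of the arrays paired this way correlated above 0.1 in 16 of 16 pairs (0.165 to 0.575). Pairs of unequal number were not computed, so these correlations cannot decide whether paired arrays share an explant. Array number and dim probes limit the precision. On simulated data with 38 arrays, the step run on 25697 probes recovered 98% of differences of 2 and 88% and 90% of differences of 1 and -1, on the log2 scale. It recovered 46% of differences of 0.5, and 3 calls were false. The simulated noise was independent between arrays, without explant or batch effects, and 50 probes were changed per difference. The rates hold for that setting only.

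Genes were named first as the 15 largest called differences in each direction. For these, every array of the higher group had to be detected and the groups could not overlap. Further genes named were at most 4 per list and direction, those of smallest p, the genes the study named, and relatives in neurons and hair cells. The last were the 6 probes of smallest p in each direction of each difference contrast. A list read each gene by its probe of highest mean signal. The members and lists were chosen with earlier results of these data known. Alternatives were other background correction, the raw signals, the series matrix, detected probes alone, the explant or the batch as a block, fewer groups, array weights, a variance trend, other thresholds, all probes of a gene averaged, and leaving out each array.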

Additional observations from a re-analysis of the deposited data

Results flagged for a closer look

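The SG minus OC difference itself changed at 160 probes between 24 h and 72 h after kainate, and no cause was tested. Calls came from limma's test of the difference, with Benjamini-Hochberg adjustment over all probes. With only the arrays of the compared groups in the fit, 13 probes were called. The 12 genes given here were picked from the 160 probes by smallest p in each direction. The change, 72 h minus 24 h, was 2.35 for 1 probe of Hsd3b2 (adjusted p = 0.000343), 2.11 for Ern2 (adjusted p = 0.000478), 1.73 for Acsm3, 1.67 for Mei4, 1.65 for Olfr156 and 1.64 for Hmcn1. It was -1.93 for Fabp3 (adjusted p = 0.00325), -1.78 for Slc6a12 (adjusted p = 0.00203), -1.67 for Ocm, -1.67 for Art3, -1.48 for Syp and -1.26 for Cdkn1a. With 1 array left out in turn, the call held in 11 of 11 fits for each of these except Syp, which was called in 10. Because the 12 genes were picked by smallest p, how often their calls held is partly set by that choice. Groups of 2 or 3 arrays are too small for a test of single outlying arrays.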

How the results depend on the processing

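The count of probes called between SG and OC was 686 when a log2 difference of at least 1 was also required, and 1251 to 1940 when 1 array was left out. For the change against control explants, 95 probes passed an unadjusted p under 0.005 and 0 to 3 were called with 1 array left out, and for the change against 5 h these were 106 and 0 to 1. For the change from 24 h to 72 h, 434 were called with the explant as a replicate block, 13 with the arrays of the 4 groups alone, 98 at a log2 change of at least 1, 667 at an unadjusted p under 0.005, and 53 to 330 with 1 array left out. Among lists, 17 macrophage markers were called higher in SG with the batch as a block and 17 with the 24 h arrays alone, and 12 cholesterol genes higher in OC with the replicate block. The other list counts that the block moved by over 1.5 times, each upward, are given with their lists in the report, and it ended the call of 0 of 206 named probes. With 1 array left out, the list genes called higher in SG numbered 101 to 148, supporting cell markers higher in OC 14 to 21, non-sensory markers higher in SG 6 to 11, macrophage markers 3 to 11, Notch genes higher in OC 4 to 10, interferon genes 6 to 16 and cholesterol genes 3 to 7. Of the 206 named probes called, 131 stayed called with the same sign under every alternative that tested them, and 0 reversed. The alternative that ended most calls was leaving out OC replicate 4 (50), then OC replicate 3 (41), which leaves 1 OC array assumed to vary like the other groups. Among genes not called between SG and OC, Atoh1 read 0.09 with the batch as a block and -0.07 to 0.03 with 1 array left out, Mei4 -0.01 with the replicate block and -0.07 to 0.12, and Fabp3 -0.44 to 0.02. Signal near background limits every gene read as not detected.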
